A study of Mus musculus with 24 samples.

Results

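The genes described here encode the enzymes that build cholesterol and fatty acids, together with the factors that switch them on. They are 34 mouse genes chosen by name for this function, by a rule that uses no measured value. The choice was made with earlier results of these data known. All 34 had at least 1 probe on the array, 66 probes in all. A probe entered the tests if 3 or more of the 4 arrays in any group showed it well above background, and 33 of the 34 genes passed, among 16478 genes tested. They comprised 18 sterol enzymes, 6 regulators and 9 fatty acid enzymes. The gene that did not pass was Me1, cytosolic malic enzyme, which supplies NADPH for fatty acid synthesis and was well above background on 0 of the 24 arrays.

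RNA was taken from sorted CD4+ T cells of female C57BL/6 mice aged 6 or 7 weeks, in 6 groups of 4 arrays, with 1 or 2 arrays of each group from mice of 7 weeks. The conditional knockout (CKO) mice had lost Trim28, a corepressor that many zinc finger proteins bring to chromatin, in T cells, and the wild type (WT) mice were their controls. Same-numbered CKO and WT arrays came from mice of the same age, except replicate 1 of the regulatory T cells (CKO 7 weeks, WT 6 weeks). The groups were CKO and WT regulatory T cells (Treg, sorted as CD4+CD62+CD25+), CKO and WT naive CD4+ cells (CD4+CD62+CD25-) stimulated for 13 h through the T cell receptor with plate-coated anti-CD3 and anti-CD28, and CKO and WT naive cells left unstimulated. The Cre line that deleted Trim28 was not given in the sources used here, nor whether the unstimulated cells were cultured. The labels number the arrays of a group 1 to 4 without saying that they came from separate mice, so a p-value measures the spread between these samples, which may be technical. The 4 CKO Treg arrays carry a treatment label of TCR stimulation, while the design text gives stimulation for naive cells only and the WT Treg arrays are labelled unstimulated. Of 9 genes listed as marks of stimulation, 0 were higher and 1 was lower in CKO Treg than in WT Treg. In stimulated against unstimulated cells 7 were higher and 2, Cd69 and Nr4a1, were lower in both genotypes. Over all genes tested, 2.47% were higher and 1.84% lower in CKO Treg than in WT Treg. With stimulation 29.7% were higher and 30.4% lower in CKO cells, and 31.7% and 30.2% in WT cells. Whether the CKO Treg had been stimulated was not tested.

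Levels are log2 signals relative to the 75th percentile of their own array, so 0 is the 75th percentile and a step of 1 is a 2-fold change in signal. The level of one probe cannot be set against that of another. A change was called when the adjusted p of limma's moderated test was under 0.05 after Benjamini-Hochberg adjustment over all 16478 genes. The typical standard error of a log2 fold change was 0.22. The 75th percentile itself lay between 31.3 and 372 signal units, lowest in CKO Treg (31.3 to 116 units), and 43.0% to 61.2% of probes were well above background on an array. Trim28, the check of the genotype, averaged 0.94 ± 0.29 in CKO and 2.45 ± 0.11 in WT unstimulated cells (SD, n = 4 each), and the 2 genotypes differed by -1.51 ± 0.17 (SE) there, by -2.68 in stimulated cells and by -1.57 in Treg (adjusted p = 4.44e-06, 8.97e-10 and 1.95e-06). Where the probe lies relative to the deleted part of Trim28 is not given. All 5 Treg markers, Foxp3 among them, were higher in Treg than in unstimulated naive cells of both genotypes. In RNA from a bulk population, fewer cells of a type and less RNA per cell cannot be told apart.

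Cells make cholesterol from acetyl-CoA through mevalonate, isoprenoid diphosphates, squalene and lanosterol, and they make fatty acids from the same acetyl-CoA through malonyl-CoA. Both routes are run by membrane-bound transcription factors, the SREBPs, which Scap carries to the Golgi for cleavage when sterols are scarce and which the Insig proteins hold back when sterols are plentiful. The factor from Srebf2 acts mainly on sterol genes and the forms from Srebf1 mainly on fatty acid genes, through sterol regulatory elements in promoters that often also hold CCAAT boxes, bound by NF-Y, and GC boxes, bound by Sp1. T cells that leave rest for growth are known to raise both routes, since a dividing cell needs new membrane.

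Promoter windows of 250 bases before the transcription start, from RefSeq on GRCm38.p6, were found for 27 of the 34 genes, 36 windows in all because some genes have several starts. TCACNCCAC, a short form of the sterol regulatory element searched on both strands, was in 1 member, Hmgcs1, and in 1.05% of the 32851 windows of all genes. CCAAT was in 14 of 18 windows of sterol enzymes (77.8%), 5 of 10 of regulators (50%) and 3 of 8 of fatty acid enzymes (37.5%), against 33.9% of all windows. GGGCGG, the GC box, was in 15 of 18 windows of sterol enzymes (83.3%), 7 of 10 of regulators (70%) and 3 of 8 of fatty acid enzymes (37.5%), against 32.7% of all. CACGTG, the E-box, was in 3 of 18 windows of sterol enzymes (16.7%), 2 of 10 of regulators (20%) and 1 of 8 of fatty acid enzymes (12.5%), against 6.02% of all windows. Windows of 1 gene overlap and are not independent, a match is not a site shown to be used, and no match says only that these letters are not in this window. Hmgcs1 is shown because it alone held TCACNCCAC. Idi1, Cyp51 and Lss, added after their values were seen, rose most with stimulation in WT cells among the sterol enzymes with a window. Capitals mark TCACNCCAC and CCAAT, either strand counted, and each sequence is read 5′ to 3′ on the strand of its gene. In Hmgcs1 (chr13:119690101-119690350, plus strand) TCACCCCAC lay at -137 to -129 from the start. The nearest reversed CCAAT boxes on its sides lay at -176 to -172 and at -45 to -41. Idi1 (chr13:8885356-8885605, plus strand) held reversed CCAAT boxes at -45 to -41 and at -14 to -10. Cyp51 (chr5:4104698-4104947, minus strand) held CCAAT at -29 to -25, and Lss (chr10:76531355-76531604, plus strand) held a reversed one at -62 to -58.
Hmgcs1: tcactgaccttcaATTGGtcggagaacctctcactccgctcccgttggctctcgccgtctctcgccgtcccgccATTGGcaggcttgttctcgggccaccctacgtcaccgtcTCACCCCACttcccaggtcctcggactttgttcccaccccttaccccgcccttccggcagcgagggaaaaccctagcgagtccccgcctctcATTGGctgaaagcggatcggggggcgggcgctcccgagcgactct
Idi1: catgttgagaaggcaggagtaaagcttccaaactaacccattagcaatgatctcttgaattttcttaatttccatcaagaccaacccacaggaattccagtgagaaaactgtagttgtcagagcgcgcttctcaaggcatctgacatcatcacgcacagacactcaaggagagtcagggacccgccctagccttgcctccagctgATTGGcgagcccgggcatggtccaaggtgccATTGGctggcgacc
Cyp51: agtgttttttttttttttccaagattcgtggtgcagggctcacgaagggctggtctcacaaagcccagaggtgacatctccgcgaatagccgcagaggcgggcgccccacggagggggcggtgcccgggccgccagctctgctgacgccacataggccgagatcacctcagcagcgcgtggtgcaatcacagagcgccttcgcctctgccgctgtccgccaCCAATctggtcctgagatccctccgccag
Lss: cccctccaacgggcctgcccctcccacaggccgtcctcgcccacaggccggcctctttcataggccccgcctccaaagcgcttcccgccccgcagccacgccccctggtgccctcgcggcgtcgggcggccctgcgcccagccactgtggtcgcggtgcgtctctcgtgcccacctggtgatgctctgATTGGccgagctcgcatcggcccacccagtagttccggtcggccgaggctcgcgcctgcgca

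Most of the cholesterol route was higher in TCR-stimulated than in unstimulated naive cells of both genotypes, and the fatty acid genes were divided. Whether the unstimulated cells were also cultured is not given, and the part of culture was not tested. Of the 18 sterol enzymes, 12 rose and 2 fell in CKO cells, and 11 rose and 2 fell in WT cells. Their median log2 fold change was 1.85 in CKO and 1.52 in WT cells, where the median over all genes was -0.08 and -0.03. Of the 9 fatty acid enzymes, 3 rose and 4 fell in CKO cells (median -0.49), and 4 rose and 3 fell in WT cells (median 0.13). These counts stand against a background in which stimulation changed 60.2% of all genes in CKO cells (29.7% higher, 30.4% lower) and 61.9% in WT cells (31.7% higher, 30.2% lower). The 2 comparisons share no arrays.

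**Figure D1:**
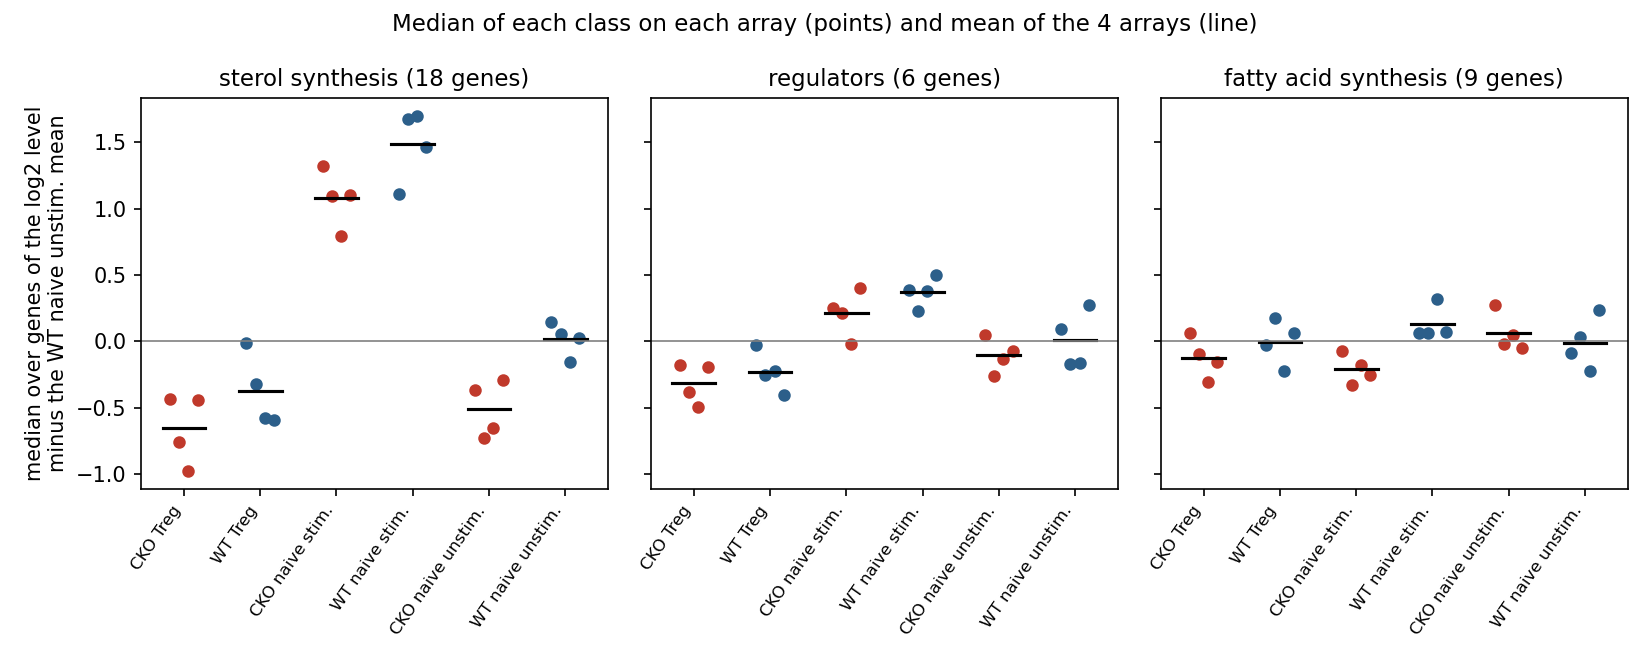
Each point is 1 array, placed at the median over the genes of a class of the log2 level minus that gene's mean in WT unstimulated cells (vertical axis, log2 units). Lines are means of the 4 arrays of a group. Sterol enzymes sit at 0.79 to 1.32 in CKO stimulated and 1.11 to 1.70 in WT stimulated cells, above all unstimulated and Treg arrays, while fatty acid enzymes stay within -0.33 to 0.32 in all 6 groups.

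Idi1, isopentenyl-diphosphate isomerase, rose most among the sterol enzymes in both genotypes. Its level was 3.95, 3.61, 3.26 and 3.87 on the 4 CKO stimulated arrays, against 0.41, -0.27, -0.10 and 0.32 on the CKO unstimulated arrays. The WT arrays stood at 4.31, 4.46, 4.79 and 4.56 with stimulation, against 1.29, 1.21, 0.99 and 1.12 without. Stimulated and unstimulated arrays were far apart in both genotypes, and the log2 fold change was 3.58 ± 0.20 in CKO (12.0-fold, adjusted p = 4.3e-12) and 3.38 ± 0.20 in WT cells (10.4-fold, adjusted p = 5.7e-12). The array annotation places the Idi1 probes on chromosome 2, while RefSeq has Idi1 on chromosome 13, and their accession was not in the RefSeq table used, so these values rest on the name given by the array.

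Early in the route, Hmgcs1, HMG-CoA synthase, stood at 4.47, 4.13, 3.69 and 4.67 in CKO stimulated cells, against 2.57, 2.07, 2.20 and 2.55 in CKO unstimulated cells. In WT cells it was 4.39, 4.67, 5.03 and 5.05 with stimulation, against 2.99, 2.86, 2.59 and 2.98 without. No stimulated array overlapped an unstimulated one, and the rise was 1.89 ± 0.22 in CKO (adjusted p = 2.6e-07) and 1.93 ± 0.22 in WT cells (adjusted p = 1.5e-07). Pmvk, phosphomevalonate kinase, rose by 1.31 ± 0.13 in CKO and by 1.87 ± 0.13 in WT cells, with CKO stimulated arrays at 3.07 to 3.34 and WT stimulated arrays at 3.76 to 4.04. Mvk, mevalonate kinase, rose in CKO cells, by 1.83 ± 0.39 (adjusted p = 0.00034). Its WT change was 0.80 ± 0.39 (adjusted p = 0.08), and on the 2 slides that hold both WT states it was -0.47 and 1.34.

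The enzymes from farnesyl diphosphate to lanosterol rose together. Fdps, farnesyl diphosphate synthase, rose by 2.66 ± 0.41 in CKO and by 1.63 ± 0.41 in WT cells. Fdft1, squalene synthase, rose by 2.13 in CKO and 1.60 in WT cells, and Lss, which closes the sterol rings, by 2.68 and 2.24 in the same order. Sqle, squalene epoxidase, a slow step of the route, stood at 2.59, 2.25, 2.02 and 2.30 in CKO stimulated cells, against -0.09, -1.15, -1.26 and -0.15 in CKO unstimulated cells. In WT cells its level was 2.61, 2.93, 3.07 and 2.95 with stimulation, against 1.21, 0.84, 0.64 and 0.71 without. No stimulated array came near an unstimulated one, and the rise was 2.95 ± 0.29 in CKO and 2.04 ± 0.29 in WT cells (adjusted p = 2.3e-06 in WT). Within the slides that hold both states, numbered 1 and 6, Sqle rose by 2.68 and 3.28 in CKO cells and by 1.41 and 2.43 in WT cells, and the WT rise of Fdps was 0.18 and 2.06, so slide 1 gave the smaller WT rise of both. On slide 1 the stimulated arrays came from mice of 7 weeks and the unstimulated arrays from mice of 6 weeks.

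After lanosterol the response was mixed. Cyp51, lanosterol demethylase, rose by 2.54 in CKO and 2.66 ± 0.26 in WT cells (adjusted p = 2e-08 in WT). Msmo1, methylsterol oxidase, rose by 2.00 in CKO and 1.40 in WT cells, Hsd17b7, a keto-reductase of the same demethylation, by 1.87 and 1.64, and Sc5d, a sterol desaturase, by 1.13 and 1.44. Other enzymes were not called in either genotype. These were Nsdhl, the decarboxylating dehydrogenase (0.21 in CKO, 0.09 in WT), Ebp, the sterol isomerase (-0.11 and 0.07), and, at the very start, Acat2, acetyl-CoA acetyltransferase (-0.18 and 0.19).

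A few sterol enzymes fell with stimulation. Tm7sf2, a sterol reductase of the nuclear envelope and ER, was 0.71, 0.55, -0.03 and 0.39 in CKO stimulated cells, against 1.26, 1.52, 1.44 and 1.52 in CKO unstimulated cells, a log2 fold change of -1.03 ± 0.20 (adjusted p = 0.00011). In WT cells it was -0.26, 0.04, 0.54 and 0.49 with stimulation, against 1.31, 1.58, 1.63 and 1.54 without, with a log2 fold change of -1.31 (adjusted p = 5.4e-06). Both genotypes thus had every stimulated array below every unstimulated array. Mvd, mevalonate diphosphate decarboxylase, fell in CKO cells by 1.10 ± 0.17 (adjusted p = 1.3e-05), and its WT log2 fold change was -0.36 (adjusted p = 0.077). Dhcr7, which carries out a last reduction to cholesterol, fell in WT cells, with a log2 fold change of -0.58 (adjusted p = 0.0055), and gave -0.26 in CKO cells (adjusted p = 0.19). Its WT call was lost after the normexp background correction (adjusted p = 0.056).

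**Figure D2:**
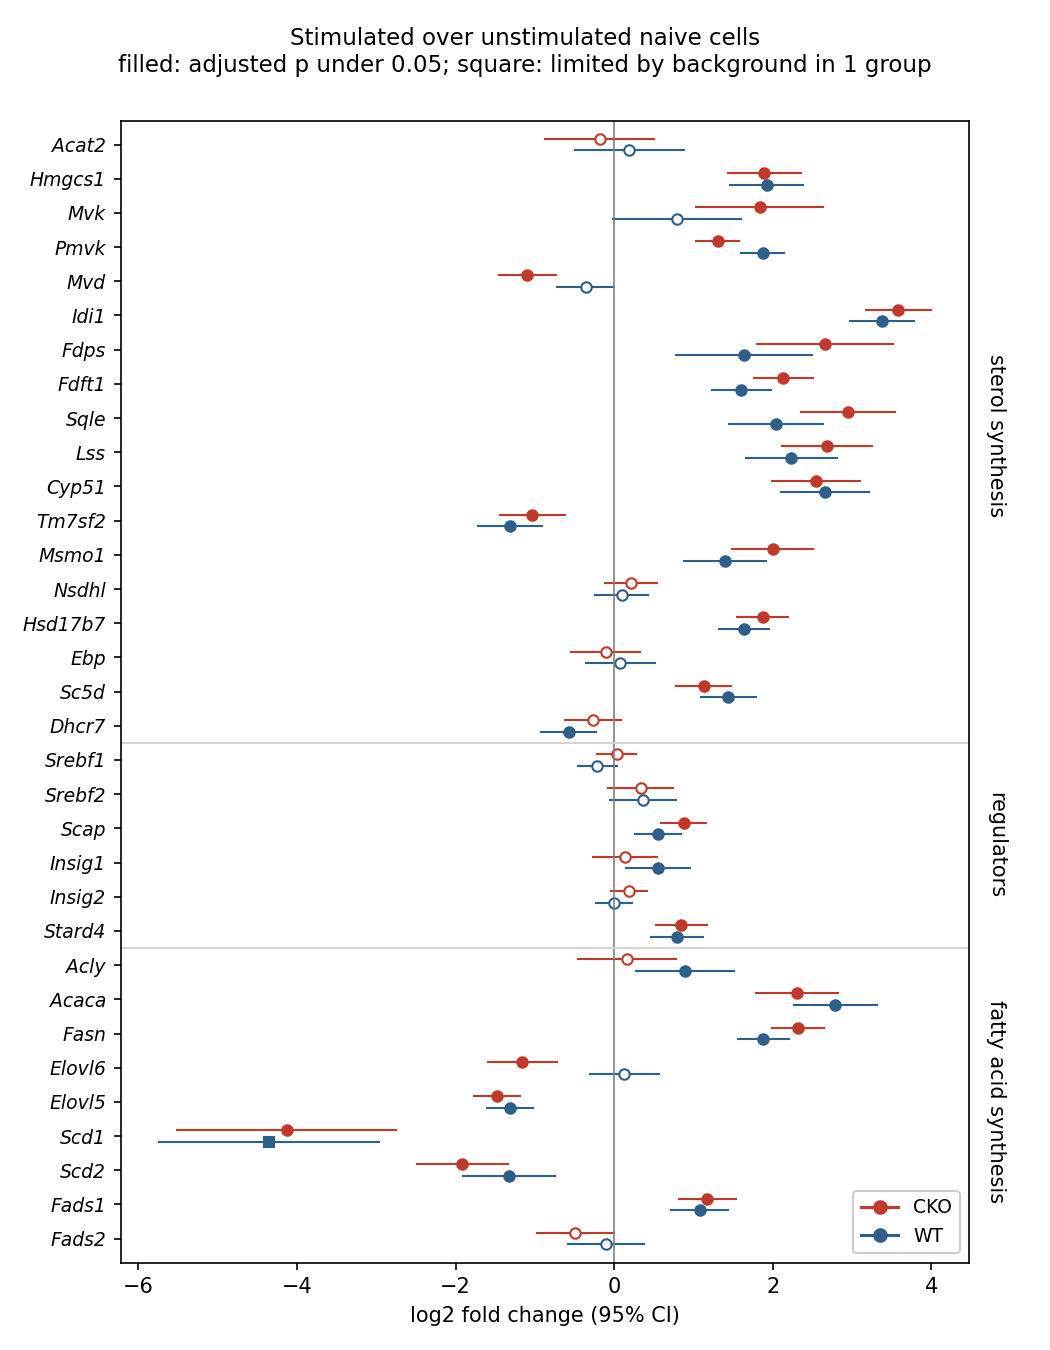
Log2 fold change of each of the 33 genes in stimulated over unstimulated naive cells (horizontal axis, bars are 95% confidence intervals), CKO in red and WT in blue. Filled points passed the adjusted p threshold, and the square is a gene whose WT stimulated signal was not well above background. Idi1 lies farthest to the right at 3.58 in CKO and 3.38 in WT cells, and the desaturases Scd1 and Scd2 lie at the left.

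Each read from its brightest probe, the 6 regulators had log2 fold changes between -0.21 and 0.88. Scap, the escort of the SREBPs, rose by 0.88 in CKO and 0.55 in WT cells, where its WT groups overlapped. Stard4, a cytosolic sterol carrier, rose by 0.85 in CKO and 0.79 in WT cells. Insig1, an ER retention protein and a known SREBP target in mouse and human, rose in WT cells by 0.55 (adjusted p = 0.018), with groups that overlapped, and gave 0.13 in CKO cells. Its second probe gave 0.05 in WT and -0.41 in CKO cells, and the WT call was lost in 9 of 19 alternative settings. Srebf1, Srebf2 and Insig2 were not called in either genotype. Their log2 fold changes lay at 0.03, 0.33 and 0.18 in CKO cells and at -0.21, 0.36 and -0.01 in WT cells. The other Srebf2 probes, well above background on all arrays, gave 1.09, 0.32 and 0.67 in CKO cells. In WT cells they gave 0.65, 0.77 and 0.60.

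Fasn and Acaca, which lay down the carbon chain, rose in both genotypes. Fasn, fatty acid synthase, was 6.80, 6.94, 6.76 and 7.02 in CKO stimulated cells, against 4.64, 4.32, 4.47 and 4.82 in CKO unstimulated cells. WT levels were 6.82, 6.90, 7.15 and 7.07 with stimulation, against 5.12, 5.14, 4.87 and 5.28 without. Stimulated arrays stood clear of unstimulated ones in both genotypes, by 2.32 ± 0.16 in CKO (adjusted p = 9e-11) and 1.88 ± 0.16 in WT cells (adjusted p = 1.2e-09). Acaca, acetyl-CoA carboxylase, which makes malonyl-CoA, rose by 2.30 ± 0.25 in CKO and 2.79 ± 0.25 in WT cells (adjusted p = 8.8e-08 and 3.7e-09), and its 4 probes gave 1.58 to 2.83 in WT cells. Acly, ATP citrate lyase, which supplies cytosolic acetyl-CoA, rose in WT cells by 0.89 (adjusted p = 0.013), with overlapping groups, and gave 0.16 in CKO cells, with -0.42 and -0.17 within slides 1 and 6. The WT call of Acly was lost in 4 of 19 alternative settings. Fads1, a desaturase of polyunsaturated fatty acids, rose by 1.17 in CKO and 1.08 in WT cells, on a dim probe. Both Fads1 calls were lost after the normexp background correction (adjusted p = 0.058 in CKO and 0.069 in WT cells).

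Of the 6 elongases and desaturases, a grouping made after the values were seen, 4 fell and 1, Fads1, rose in CKO cells, and 3 fell and 1, again Fads1, rose in WT cells. Scd2, a stearoyl-CoA desaturase, was -0.16, -0.38, -0.64 and -0.70 in CKO stimulated cells, against 1.82, 1.40, 0.96 and 1.60 in CKO unstimulated cells. In WT cells it was -0.13, 0.88, 1.55 and 1.11 with stimulation, against 2.16, 2.51, 2.42 and 1.62 without. CKO arrays after stimulation were all below 0, while the WT stimulated arrays were spread widely, and the log2 fold change was -1.91 ± 0.28 in CKO (adjusted p = 4.5e-06) and -1.32 ± 0.28 in WT cells (adjusted p = 0.00028). Its relative Scd1 was a dim probe. In CKO cells its log2 fold change was -4.13 ± 0.66 (adjusted p = 1.7e-05), with 3 of 4 stimulated arrays well above background. In WT cells 0 of 4 stimulated arrays were well above background (mean -6.29, against -1.94 without stimulation). In the main processing the signal was thus at least 8.99-fold lower with stimulation (adjusted p = 7.42e-06). That bound was set by the dimmest signal that was well above background. It does not hold under every processing, since the WT call was lost after the normexp background correction (adjusted p = 0.065). Among the alternative settings the weakest log2 fold changes of Scd1 were -1.11 in CKO and -0.89 in WT cells. Elovl5, an elongase of polyunsaturated fatty acids, fell in both genotypes, with log2 fold changes of -1.47 in CKO and -1.32 in WT cells. Fads2, the other polyunsaturated desaturase, was not called (-0.49 in CKO, -0.10 in WT).

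Elovl6, the elongase that takes palmitate to stearate, was the 1 member whose response was called different between the genotypes in the main fit. Its level was 0.11, -0.03, -0.24 and 0.10 in CKO stimulated cells, against 1.29, 0.88, 1.12 and 1.28 in CKO unstimulated cells. In WT cells it was 0.65, 0.64, 0.90 and 0.65 with stimulation, against 0.08, 0.60, 1.25 and 0.40 without. Stimulation lowered it in CKO cells, with a log2 fold change of -1.16 ± 0.21 (adjusted p = 6e-05), and gave 0.13 in WT cells, where the unstimulated arrays were widely spread. The interaction of genotype and stimulation was -1.29 ± 0.29 with a 95% confidence interval from -1.90 to -0.68 (adjusted p = 0.016), and it was the 1 interaction called among the 33 members, against 3.42% of all genes (1.3% with a negative sign). After the normexp background correction its adjusted p was 0.121. Quantile normalization and the authors' values each called 1 further member for this interaction, and array weights called 4 further members. Within slides 1 and 6 Elovl6 changed by -1.18 and -1.37 in CKO cells and by 0.57 and -0.35 in WT cells. For Sqle the interaction was 0.91 ± 0.40 (adjusted p = 0.28) and for Mvd -0.74 ± 0.24 (adjusted p = 0.11).

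Markers of other cell types moved with stimulation, and their part in these changes was not tested. All 5 B cell markers tested, 6 of 6 CD8 and NK markers in CKO cells and 5 of 6 in WT cells, and 5 of 6 myeloid markers were lower in stimulated cells. The summed B cell marker signal, in multiples of the 75th percentile of the array, ranged over 1.10 to 4.30 in CKO stimulated against 14.1 to 47.3 in CKO unstimulated cells, and over 0.353 to 1.63 in WT stimulated against 5.38 to 21.1 in WT unstimulated cells. For Cd8a, Gzma and Ncr1, 0 of the 4 WT stimulated arrays were well above background. The other CD8 and NK markers, Cd8b1, Klrd1 and Nkg7, were well above background on all 4. Nkg7 averaged 2.00 in WT stimulated and 2.03 in WT unstimulated cells. Within slides 1 and 6 the sterol median rose by 1.84 and 1.63 in CKO cells and by 1.03 and 1.84 in WT cells, and the fatty acid median was -0.42 and -0.34 in CKO cells and 0.49 and 0.16 in WT cells. Scaled on the probes detected on all 24 arrays, the median of all genes moved to -0.25 in CKO and -0.28 in WT cells, and the sterol median was 1.68 in CKO and 1.27 in WT cells.

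Without Trim28, unstimulated naive cells had less RNA for a group of sterol enzymes that includes Mvk, Fdps, Sqle and Idi1. Of the 18 sterol enzymes, 9 were lower and 1 was higher in CKO than in WT cells, with 16 of 18 log2 fold changes below 0 and a median of -0.52, against 0.01 over all genes. Of the 6 regulators 0 were higher and 1 was lower, and of the 9 fatty acid enzymes 0 were higher and 1 was lower, with a median of 0.08. Among all genes tested 18.7% were called, 7.83% higher and 10.9% lower. Between the CKO and WT arrays that share a slide, 11 of the 18 sterol enzymes were lower in CKO on all 4 slides and 1 was higher on all 4, against 4 and 0 of the 9 fatty acid enzymes. The share of all genes that kept 1 direction on every slide was not counted, so these counts have no background. The sterol median within a slide lay between -0.72 and -0.40. Of the 12 members called, 3 were called after the normexp background correction (Sqle, Idi1 and Fdft1), and 7 without CKO replicate 2 or without CKO replicate 3.

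Mvk had the lowest log2 fold change of the members. Its level was -3.66, -3.77, -3.96 and -3.17 in CKO cells, against -1.21, -1.61, -1.87 and -2.88 in WT cells, so every CKO array was below every WT array and the WT array closest to them was replicate 4. The log2 fold change was -1.74 ± 0.39, 3.35-fold lower (adjusted p = 0.0051), and the second Mvk probe gave -1.35. Fdps was -1.13, -1.91, -1.44 and -0.67 in CKO cells, against 0.77, 0.75, 0.52 and -0.64 in WT cells. Here too WT replicate 4 stood next to the CKO arrays, and the log2 fold change was -1.64 ± 0.41 (3.11-fold lower, adjusted p = 0.011). The second Fdps probe, designed to a cDNA, gave 0.20. Replicate 4 of both genotypes shares slide 4, where Mvk differed by -0.29 and Fdps by -0.03, against -2.08 to -2.44 and -1.90 to -2.65 on the other 3 slides.

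Sqle was 2.85-fold lower in CKO cells (log2 fold change -1.51 ± 0.29, adjusted p = 0.0015), and its CKO levels, given above, all lay below the WT levels. Idi1 was 2.09-fold lower, with a log2 fold change of -1.06 ± 0.20 (adjusted p = 0.0013), and within slides it differed by -0.79 to -1.48. Its second probe gave -0.82. Sqle and Idi1 were the 2 members whose call was kept under every alternative processing and with any single array left out.

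The other sterol enzymes that fell were smaller in change. Msmo1 gave a log2 fold change of -0.88 (adjusted p = 0.019), Fdft1 -0.87 (adjusted p = 0.0028), Lss -0.83 (adjusted p = 0.04), Hsd17b7 -0.55 (adjusted p = 0.02) and Nsdhl -0.54 (adjusted p = 0.024). Of these 5, only Lss had groups that overlapped, since its CKO replicate 4 at -1.75 was above its WT replicate 4 at -2.16, and its call was lost in 10 of 19 alternative settings. A second, dimmer Fdft1 probe, well above background on 4 CKO but 1 WT array, gave 2.14, and with the kept probes averaged the log2 fold change of Fdft1 was 0.63 (adjusted p = 0.061). Hmgcs1, at the head of the route, had no overlap between the genotypes but did not pass the test (-0.51, adjusted p = 0.11), and Sc5d was just outside it (-0.47, adjusted p = 0.054). Pmvk (-0.09), Cyp51 (-0.11) and Tm7sf2 (-0.08) were close to 0, although the other 2 Cyp51 probes gave -1.09 and -0.65.

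Mvd ran the other way. It stood at 2.08, 1.89, 1.83 and 2.12 in CKO cells, against 1.25, 1.26, 1.06 and 1.23 in WT cells. The 4 CKO arrays were all above the 4 WT arrays, on every shared slide by 0.62 to 0.89, and the log2 fold change was 0.78 ± 0.17 (1.72-fold higher, adjusted p = 0.0051). Among the regulators Stard4 was 0.69, 0.27, 0.62 and 0.60 in CKO cells, against 1.48, 1.10, 1.12 and 1.42 in WT cells, with no overlap. It was 1.66-fold lower in CKO cells, a log2 fold change of -0.73 ± 0.16 (adjusted p = 0.0039), and its other 2 probes gave -1.38 and -1.99. Srebf1 and Srebf2, which encode the factors themselves, gave 0.02 and -0.09. Insig1, Insig2 and Scap gave 0.17, -0.14 and -0.27, and 0 of these 5 were called.

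Fasn was the 1 fatty acid enzyme called in unstimulated cells, 1.45-fold lower in CKO (log2 fold change -0.54 ± 0.16, adjusted p = 0.022), with every CKO array below every WT array and within-slide differences of -0.40 to -0.81. Acly (0.49, adjusted p = 0.25), Elovl6 (0.56, adjusted p = 0.063), Scd1 (0.84, adjusted p = 0.39) and Scd2 (-0.73, adjusted p = 0.069) did not pass the test. The CKO unstimulated cells also differed in markers, whose part in these results was not tested. CD4 T cell markers were lower for 3 of 6 (Trat1 -0.91, Cd3e -0.74, Cd3g -0.71), Treg markers higher for 3 of 5 (Foxp3 0.96), B cell markers higher for 1 of 5 and CD8 and NK markers higher for 1 of 6. The summed signal of the CD4 T cell markers was 100 to 133 in CKO and 129 to 160 in WT cells, and that of the B cell markers 14.1 to 47.3 in CKO and 5.38 to 21.1 in WT cells.

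**Figure D3:**
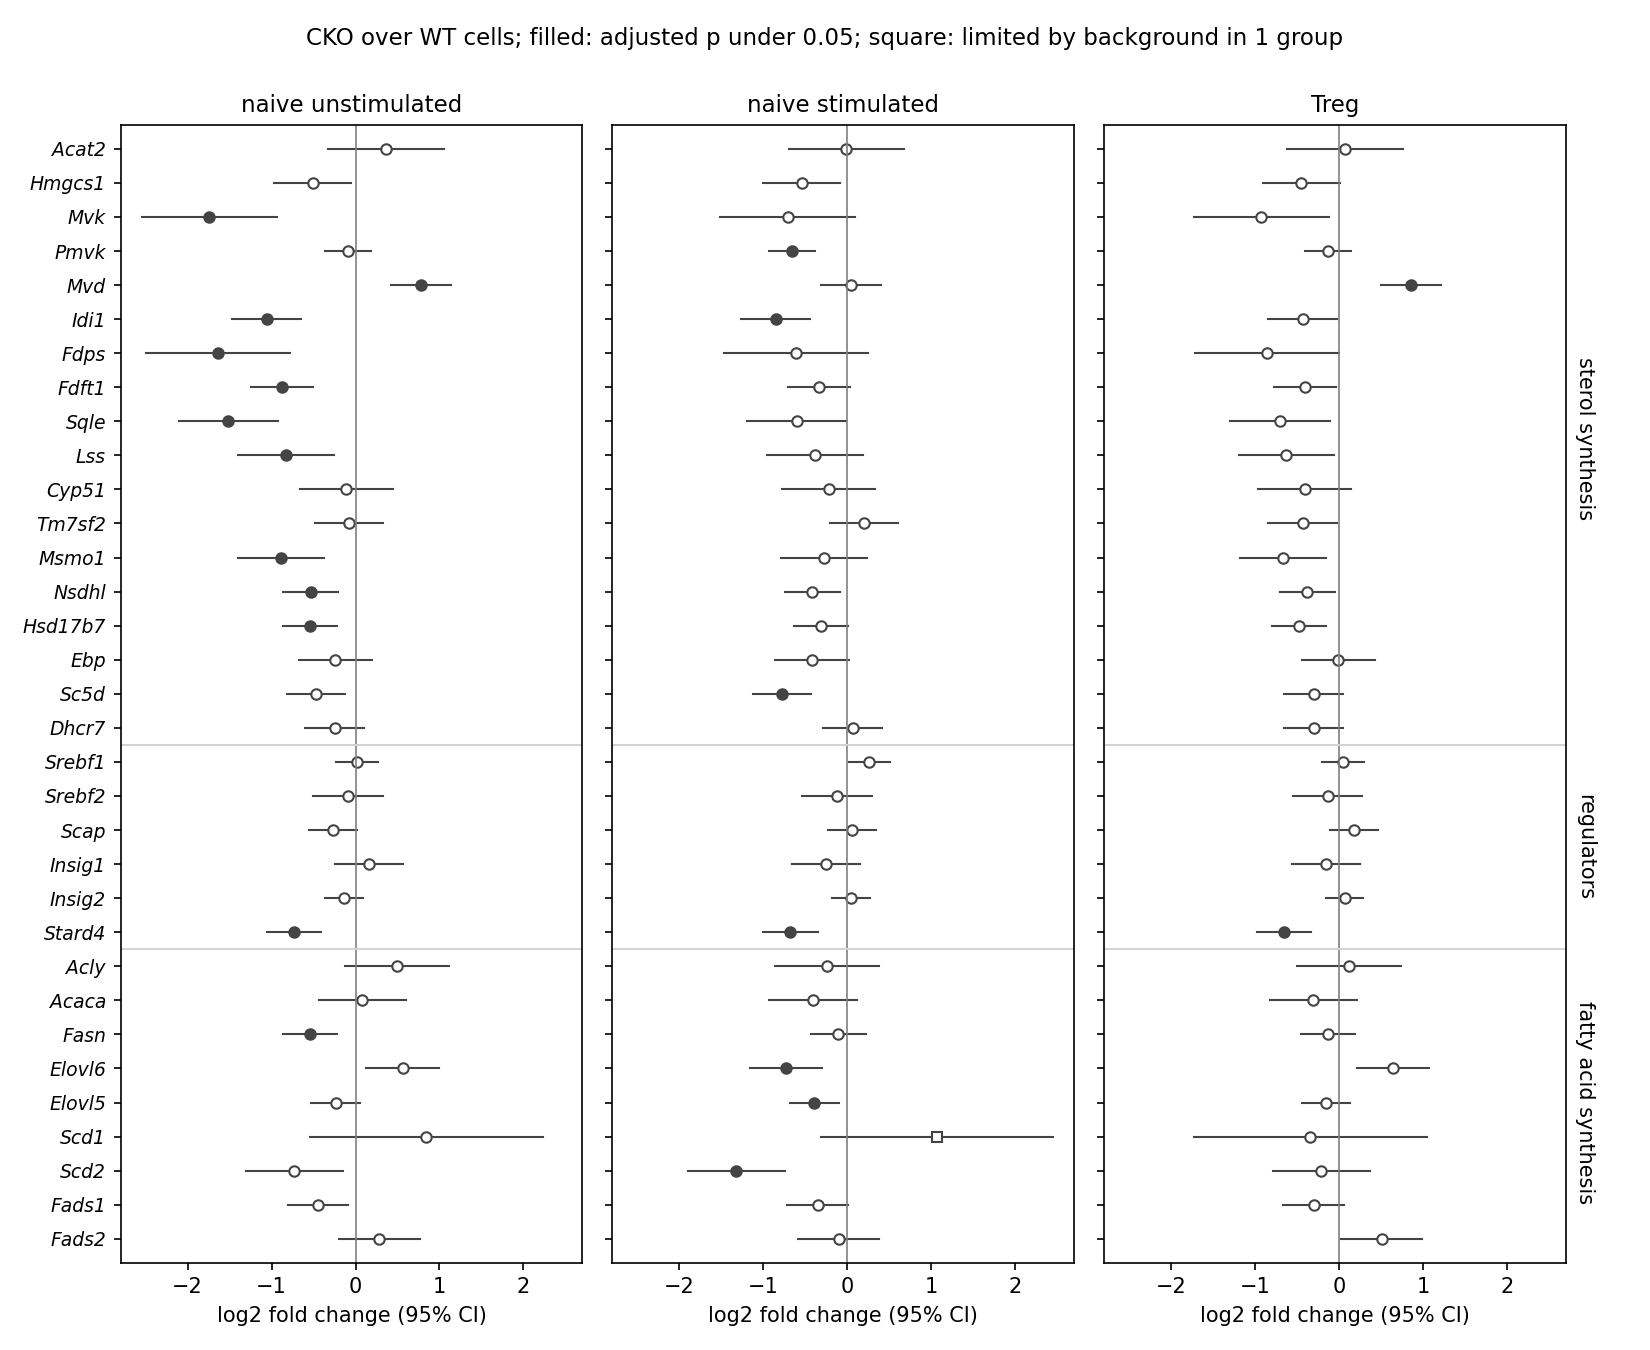
Log2 fold change of each of the 33 genes in CKO over WT cells (horizontal axis, bars are 95% confidence intervals) in unstimulated naive cells, stimulated naive cells and Treg. Filled points passed the adjusted p threshold and the square is Scd1, whose WT stimulated signal was not well above background. Most sterol enzymes lie left of 0 in all 3 panels, Mvd lies right of 0 in unstimulated cells (0.78) and Treg (0.86), and Stard4 is filled in all 3.

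After stimulation 7 members differed between the genotypes, Idi1 and Stard4 among them as in unstimulated cells. Of the 18 sterol enzymes and 6 regulators, 0 passed the test for an interaction of genotype and stimulation, so a difference between the 2 states was not shown for them. Of the 18 sterol enzymes, 3 were lower in CKO cells and 0 higher, with 15 of 18 log2 fold changes below 0 and a median of -0.40, against -0.05 over all genes. Of the 9 fatty acid enzymes 3 were lower and 0 higher, with a median of -0.35, and of the regulators 1 was lower. The share of all genes called was 24.1%, 11.6% higher and 12.4% lower, and 7 of the 33 members were lower in CKO. On slide 1 the sterol median was 0.07, against -0.52, -0.37 and -0.77 on slides 2, 5 and 6. On all 4 slides, 4 of the 18 sterol enzymes and 4 of the 9 fatty acid enzymes were lower in CKO, again without a count over all genes. With array weights 18 members were called, and scaled on the probes detected on all 24 arrays the sterol median was -0.24 and that of all genes 0.11.

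Idi1 was 1.81-fold lower in CKO stimulated cells (log2 fold change -0.85 ± 0.20, adjusted p = 0.0043), on levels of 3.26 to 3.95 in CKO against 4.31 to 4.79 in WT cells. Pmvk was at 3.34, 3.30, 3.07 and 3.25 in CKO cells, against 3.81, 3.98, 4.04 and 3.76 in WT cells. The 4 CKO arrays lay below the 4 WT arrays, and the log2 fold change was -0.66 ± 0.13 (adjusted p = 0.0016), where in unstimulated cells it had been -0.09. The interaction for Pmvk was -0.57 and was not called (adjusted p = 0.11). Sc5d was 1.72-fold lower in CKO cells (log2 fold change -0.78 ± 0.17, adjusted p = 0.0027) and Stard4 1.60-fold lower (-0.68 ± 0.16, adjusted p = 0.0044). Mvk (-0.71, adjusted p = 0.18), Fdps (-0.61, adjusted p = 0.29) and Sqle (-0.60, adjusted p = 0.13) did not pass the test in stimulated cells, and Mvd gave 0.04 (adjusted p = 0.88).

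Scd2 had the lowest log2 fold change in stimulated cells, -1.32 ± 0.28 (2.50-fold lower in CKO, adjusted p = 0.0022), on the levels given above. Its within-slide differences were -0.04, -1.26, -1.81 and -2.18 on slides 1, 2, 5 and 6. Elovl6 was 1.66-fold lower (log2 fold change -0.73 ± 0.21, adjusted p = 0.016) and lower on every slide, with differences of -0.54 to -1.14. Elovl5 was 1.31-fold lower (log2 fold change -0.39, adjusted p = 0.046), a call lost in 14 of 19 alternative settings. Fasn and Acaca gave -0.11 and -0.41 (adjusted p = 0.24 for Acaca). Beside these changes, 2 of 5 Treg markers were higher in CKO stimulated cells, Foxp3 by 2.45 (adjusted p = 5.3e-08) and Ikzf2 by 0.71. So were 2 of 5 B cell markers and 2 of 6 CD8 and NK markers, and the part of these markers was not tested.

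In Treg 2 of the 33 members were called between CKO and WT cells, where 4.31% of all genes were called. Mvd was 1.57, 1.53, 1.44 and 1.96 in CKO Treg, against 1.18, 0.84, 0.68 and 0.38 in WT Treg, with no overlap. The log2 fold change was 0.86 ± 0.17 (1.81-fold higher, adjusted p = 0.0035). Stard4 was 0.66, 0.38, 0.62 and 0.65 in CKO Treg, against 1.43, 1.24, 1.18 and 1.07 in WT Treg, again with no overlap, and its log2 fold change was -0.66 ± 0.16 (1.58-fold lower, adjusted p = 0.015). Stard4 was thus called lower in CKO cells in all 3 comparisons, and Mvd was called higher in Treg and in unstimulated naive cells. Both calls in Treg were lost after the normexp background correction and when only the arrays compared were fitted. There was 1 call left without CKO Treg replicate 2 or without WT Treg replicate 1.

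The sterol enzymes as a class had 16 of 18 log2 fold changes below 0 in CKO Treg, with a median of -0.42 against 0.00 over all genes, yet 1 was called higher and 0 lower where 4.31% of all genes were called (2.47% higher, 1.84% lower). Of the 18, 12 were lower in CKO on all 4 shared slides and 1 was higher on all 4, against 2 and 0 of the 9 fatty acid enzymes. The same count over all genes was not made. Within a slide the sterol median was -0.47, -0.59, -0.05 and -0.47 on slides 2, 3, 4 and 5. The pair on slide 2 differed in age (CKO 7 weeks, WT 6 weeks). Mvk gave -0.93 (adjusted p = 0.25), Fdps -0.86 (adjusted p = 0.35), Sqle -0.71 (adjusted p = 0.23) and Lss -0.63 (adjusted p = 0.28). Mvk was well above background on 1 of 4 CKO Treg arrays. The 9 fatty acid enzymes had a median of -0.16 and 0 calls, and Elovl6 gave 0.64 (adjusted p = 0.095). No member passed the test for a difference between the genotype effects in Treg and in unstimulated naive cells, where 0.394% of all genes did. Before adjustment, limma's p was under 0.05 for 2 members, Idi1 (0.63) and Scap (0.45), against 13.5% of all genes.

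**Figure D4:**
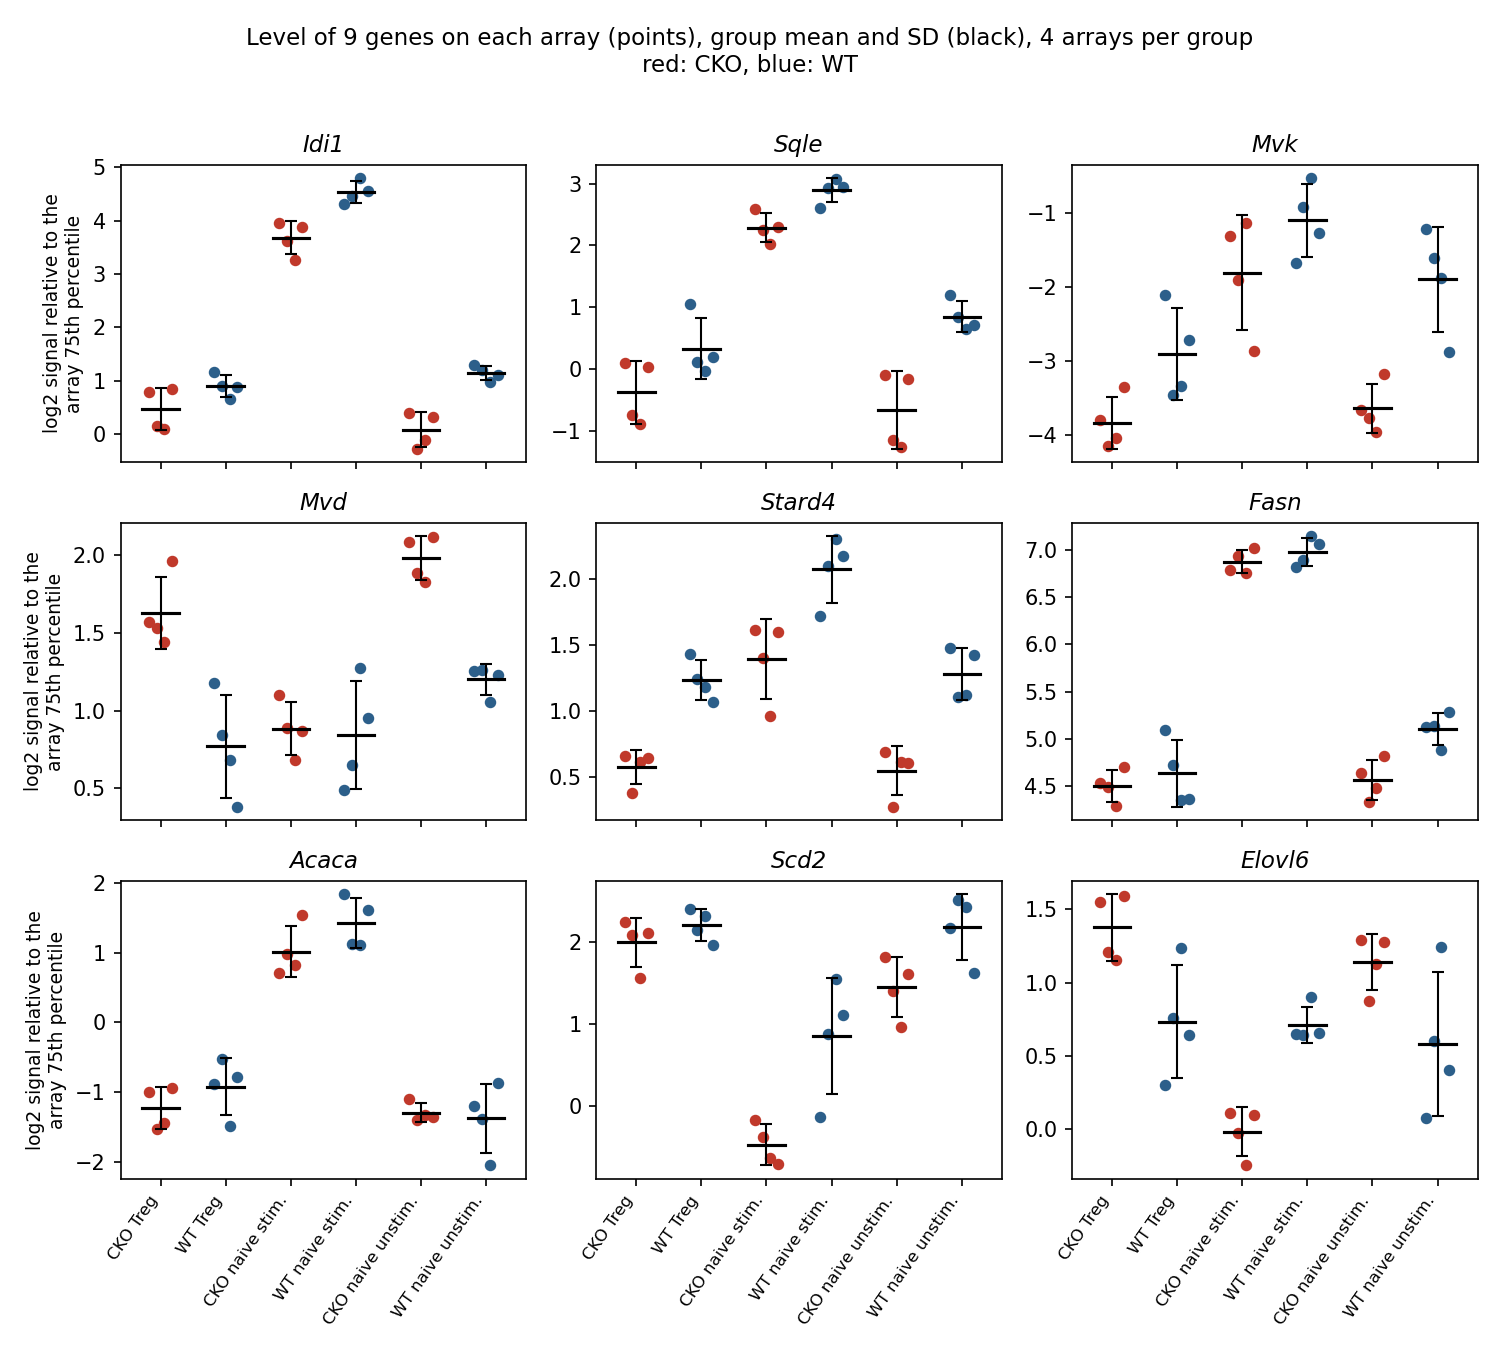
Level of 9 members on each array (vertical axis, log2 signal relative to the 75th percentile of the array), CKO in red and WT in blue, with the mean and SD of the 4 arrays of each group. Idi1, Sqle, Fasn and Acaca are high in both stimulated groups, Scd2 is low in CKO stimulated cells, Elovl6 is lowest in CKO stimulated cells, and Mvd is high in CKO unstimulated cells and CKO Treg.

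Treg against unstimulated naive cells showed few members higher in Treg. In CKO cells 1 sterol enzyme was higher and 3 were lower, 1 regulator was higher, and 1 fatty acid enzyme was higher and 1 lower, where 28.3% of all genes were called (11.6% higher, 16.7% lower). In WT cells 6 of 18 sterol enzymes were lower and 0 higher, 3 regulators were lower and 1 higher, and 2 fatty acid enzymes were lower, where 48.3% of all genes were called (18.9% higher, 29.4% lower). Scaled on the probes detected on all 24 arrays, the 12 WT calls of 1 higher and 11 lower became 10 calls of 6 higher and 4 lower, so these directions depend on the scaling. Within slides 3 and 4, which hold both cell types, the sterol median was -0.06 and -0.17 in CKO and -0.40 and -0.47 in WT cells. B cell markers were lower in Treg for 5 of 5 in CKO and 3 of 5 in WT cells, and CD8 and NK markers for 5 of 6 in CKO and 4 of 6 in WT cells. Their summed signals were 4.07 to 9.97 and 4.96 to 9.17 in CKO Treg against 14.1 to 47.3 and 16.1 to 34.7 in CKO naive cells, and 3.51 to 7.33 and 6.23 to 11.04 in WT Treg against 5.38 to 21.1 and 12.1 to 20.8 in WT naive cells, and their part was not tested. Without WT Treg replicate 1 the WT count was 16, and without WT Treg replicate 3 or 4 it was 7 and 5. Without WT naive replicate 2 it was 6.

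Hmgcs1 was lower in Treg in both genotypes, with log2 fold changes of -0.67 in CKO (adjusted p = 0.029) and -0.73 in WT cells (adjusted p = 0.011). With its kept probes averaged both calls were lost, at -0.34 in CKO and -0.064 in WT cells (adjusted p = 0.22 and 0.81), and the CKO call was lost in 5 of 19 alternative settings. Dhcr7 gave -0.66 in CKO and -0.60 in WT cells (adjusted p = 0.0067 and 0.0069). Its second probe gave 0.04 in CKO and -0.97 in WT cells, and with probes averaged the CKO call was lost (adjusted p = 0.19). The WT call was lost after quantile normalization and on the authors' values. Pmvk gave -0.44 in CKO and -0.40 in WT cells, calls lost in 2 and 7 of 19 alternative settings. Insig1 was the regulator that rose in Treg. Its level was 2.01, 1.80, 2.18 and 1.84 in CKO Treg, against 1.28, 0.97, 1.38 and 1.26 in CKO naive cells. In WT cells it was 2.21, 1.90, 2.14 and 2.19 in Treg, against 1.33, 0.52, 0.84 and 1.55 in naive cells. No Treg array overlapped a naive array of its genotype, and the log2 fold change was 0.73 in CKO (adjusted p = 0.0084) and 1.05 in WT cells (adjusted p = 0.00028). Both calls were lost after the normexp background correction, at 0.31 in CKO and 0.45 in WT cells (adjusted p = 0.24 and 0.074). Scap was lower in WT Treg (-0.63, adjusted p = 0.0011) and gave -0.18 in CKO Treg. Scd1 was lower in Treg of both genotypes, with log2 fold changes of -3.49 in CKO and -2.30 in WT cells, on a probe well above background on 1 of 4 CKO and 2 of 4 WT Treg arrays. After the normexp background correction they were -0.22 and 0.31, neither called (adjusted p = 0.62 and 0.47).

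Neighbouring pathways were read from gene lists chosen by function, and their counts stand beside the 60.2% of all genes in CKO and 61.9% in WT cells that stimulation changed. Of 11 genes of sterol efflux, esterification and the LXR response tested, 1 rose and 9 fell with stimulation in CKO cells and 1 rose and 8 fell in WT cells, with a median of -1.85 in CKO and -1.96 in WT cells. Abca1 and Abcg1, which export cholesterol, fell with log2 fold changes of -3.83 and -3.66 in CKO cells and of -4.25 and -3.99 in WT cells. Mylip, a ubiquitin ligase of the LXR response, fell as well, at -2.42 in CKO and -3.11 in WT cells. Between genotypes, Abca1 and Abcg1 were higher in CKO stimulated cells by 0.68 and 0.55.

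Of 10 genes that branch from farnesyl diphosphate to prenylation, dolichol and ubiquinone, 6 rose and 2 fell with stimulation in CKO cells and 8 rose and 0 fell in WT cells. Pdss1, which builds the ubiquinone side chain, rose by 1.32 in CKO and 1.88 in WT cells, and was lower in CKO than in WT stimulated cells (-0.56, adjusted p = 0.012). Of 10 genes of SREBP processing and sterol-driven degradation, 6 rose and 2 fell with stimulation in CKO cells. In WT cells 7 rose and 2 fell. Between genotypes, 0 of the 10 were called in unstimulated or stimulated naive cells, where 18.7% and 24.1% of all genes were called. In Treg 0 were higher and 1 was lower in CKO cells, where 4.31% of all genes were called. Of 15 genes of fatty acid supply and glycerolipid synthesis, 6 rose and 5 fell with stimulation in CKO cells and 7 rose and 6 fell in WT cells. Acss2, acetyl-CoA synthetase, fell in both, with log2 fold changes of -2.07 in CKO and -2.83 in WT cells. Of 14 genes of fatty acid oxidation, 5 rose and 5 fell in both genotypes, a share near that of all genes, and Cpt1a, which commits fatty acids to mitochondria, fell, with log2 fold changes of -2.54 in CKO and -2.77 in WT cells.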

How the data were processed

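The 34 members and the other gene lists were chosen with earlier results of these data known. The arrays were 1-colour Agilent arrays labelled with Cy3. Each deposited file holds the scanner output of 1 array, and its processed signal is an intensity that Agilent Feature Extraction (version 9.5, per the submitters' processing notes) had corrected for background, per the file headers. The series table holds the authors' normalized values, which were linear with a median of 13.5 in every column and matched the rank order of the same arrays. How they were centred is not stated in the sources used here. Both were put on a log2 scale here, since the deposited signals were linear.

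The log2 signal minus the 75th percentile of its array was used. Outlier spots were left out, spots of a probe averaged, and 25198 of 41174 probes kept. A gene was read from its brightest kept probe. Symbols were brought to RefSeq names for 24524 probes by symbol, 5086 by accession and 3109 by synonym, and 8455 kept the name in the file. The 6 groups were fitted together with lmFit and eBayes of limma 3.58.1, run under R 4.3.3, for 7 comparisons of 2 groups and 2 interactions, each 2-sided and adjusted over 16478 genes. Slides, 6 in number, came from the file headers. Same-numbered CKO and WT arrays share a slide, but the correlation of their deviations from the group means ran from -0.31 to 0.46 and was not over 0.1 in every pair of any of the 3 comparisons, so the fit has no block there. The numbers paired CKO Treg with CKO naive arrays (0.37 to 0.49). All members were named, and up to 3 called genes of each other list by size of change. Promoters were to be shown for members that hold TCACNCCAC, which gave 1, and 3 were added. In simulated data of 16478 genes, log2 changes of 1 were recovered in 61.2% of cases for unstimulated, 53.7% for stimulated and 52.2% for Treg comparisons of CKO with WT cells, and changes of 2 in 84.8%, 92.4% and 84.8%. Only 66 or 67 genes of each size were changed, with independent noise between arrays. In the data 3088 and 3963 genes were called between genotypes in naive cells, so these shares do not give the power of the real tests. The number of arrays limits the precision. No saturated spot was met among the members. Alternatives in background correction, normalization, scaling, filter, probe choice, arrays in the fit, array weights, slide and replicate blocks and left-out arrays were tried.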

Additional observations from a re-analysis of the deposited data

Results flagged for a closer look

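One array stood away from the other 3 of its group in 15 of 198 groups of 4 (7.58%), where chance gives about 1 in 20. WT unstimulated replicate 4 was the array in 3 of them. Acat2 was highest there at 0.065 (log2 level), Elovl5 highest at 4.48 and Fads1 lowest at -3.03. Mvd was lowest on WT unstimulated replicate 3 at 1.06. Among CKO unstimulated arrays, Lss was highest on replicate 4 at -1.75, the array that made its groups overlap, and Insig2 was highest on replicate 1 at 0.23.

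Among CKO stimulated arrays, Nsdhl and Srebf1 were lowest on replicate 3, at -1.14 and 3.97, Insig2 was highest on replicate 1 at 0.36, and Scd1 was lowest on replicate 4 at -6.80, the 1 CKO stimulated array where it was not well above background. In WT stimulated cells replicate 3 was highest for Elovl6 at 0.90 and lowest for Elovl5 at 2.71. In CKO Treg, Ebp was lowest on replicate 3 at 3.84 and Stard4 on replicate 2 at 0.38. In WT Treg, Scap was highest on replicate 1 at 3.72.

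The response of Elovl6 to stimulation differed between CKO and WT cells by -1.29 on the log2 scale, tested as an interaction in limma. That call was lost after the normexp background correction.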

How the results depend on the processing

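Stimulation calls were the steadiest: 21 of 23 in CKO and 17 of 23 in WT cells were kept under every alternative, against 5 of 7 for CKO over WT stimulated cells (Idi1, Pmvk, Sc5d, Scd2 and Stard4), 2 of 12 for unstimulated cells (Idi1 and Sqle), 0 of 2 for Treg, 1 of 12 and 0 of 7 for Treg over naive cells in WT and CKO, and 0 of 1 for the interaction with stimulation. After normexp background correction the counts were 3 for unstimulated cells, 0 for Treg, 14 for CKO Treg over naive cells and 0 for the interaction with stimulation. That interaction count was 2 after quantile normalization, 2 on the authors' values and 5 with array weights, which also gave 18 calls for CKO over WT stimulated cells. Averaging a gene's probes left 1 call in Treg. Fitting only the arrays compared left 0 in Treg and 5 for WT Treg over naive cells. Leaving out 1 array gave 7 to 15 calls for unstimulated cells (15 without WT replicate 4), 6 to 10 for stimulated cells, 1 to 3 for Treg, 23 and 22 to 24 for stimulation in CKO and WT cells, and 5 to 6 and 5 to 16 for Treg over naive cells in CKO and WT. The interactions stayed at 1 and 0.

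Directions reversed 7 times among 1070 alternative values other than left-out arrays: Fdft1 with probes averaged in unstimulated cells (0.63) and in CKO Treg over naive cells (-0.20), Mvk after normexp in CKO and WT Treg over naive cells (0.80 and 0.21), Scd1 after normexp in WT Treg over naive cells (0.31), and Srebf1 in WT Treg over naive cells after quantile normalization (0.051) and on the authors' values (0.050). The cause was not tested. Scaling on the probes detected on all 24 arrays moved the median of all genes to 0.09 for CKO over WT unstimulated and 0.11 for stimulated cells. The genes higher in CKO were then 1707 of 3108 called and 2771 of 3984, against 1291 of 3088 and 1912 of 3963. For WT stimulation they were 4232 of 10533, against 5220 of 10197, and for Treg over naive cells 2564 of 4403 in CKO and 4545 of 7487 in WT, against 1908 of 4664 and 3116 of 7967. After normexp 389, 1379 and 82 genes were called between genotypes in unstimulated cells, stimulated cells and Treg, and with array weights 6618 and 8261 in the naive states.

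With the replicate number as a block the counts were 13 for unstimulated cells, 9 for stimulated cells and 2 for Treg, 23 and 23 for stimulation, 14 and 8 for Treg over naive cells in WT and CKO, and 1 and 0 for the interactions, so the block moved none by over 1.5 times. With the slide as a block the genotype counts were 13, 7 and 2. Dim probes, Mvk, Scd1, Fads1 and Fads2 among them, had only 0 to 3 arrays of some groups well above background.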

Other observations

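Outside the synthesis genes, Acadm and Osbpl3 had larger genotype differences than any of the 33 members in each of the 3 comparisons of CKO with WT cells. Acadm, the medium-chain acyl-CoA dehydrogenase of mitochondrial fatty acid oxidation, was higher in CKO cells by 1.93 in unstimulated cells, 2.07 in stimulated cells and 3.58 in Treg (log2, limma adjusted p = 3.03e-08, 1.04e-08 and 1.5e-12). Its effect was larger in Treg than in unstimulated naive cells by 1.65 (adjusted p = 0.00036). Of the 14 genes of fatty acid oxidation, 1 was called in unstimulated cells and 1 in Treg, in each case Acadm. Of all genes, 18.7% and 4.31% were called there.

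Osbpl3, an oxysterol-binding protein homologue, was higher in CKO cells by 3.92, 2.73 and 1.79 in the same 3 comparisons (adjusted p = 4.49e-10, 1.09e-07 and 3.28e-05). Fntb, the beta subunit of the farnesyltransferase that uses farnesyl diphosphate, was higher in CKO by 1.78 in unstimulated cells and 2.69 in Treg (adjusted p = 5.92e-06 and 1.02e-08), and its interaction with stimulation was -1.61 (adjusted p = 0.0025). Acacb, the acetyl-CoA carboxylase attached to mitochondria, was higher in CKO unstimulated cells by 1.51 (adjusted p = 0.019). Lpin1, a phosphatidate phosphatase of glycerolipid synthesis, was higher in CKO stimulated cells by 1.25 (adjusted p = 1.34e-06).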
